A study of Mus musculus with 12 samples.

Results

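The genes described here are 9 transcription factor genes that carry the signal of the circadian clock to other genes or feed it back to the clock. They are the PAR bZIP activators Dbp, Tef and Hlf, their opponent Nfil3, the REV-ERB repressors Nr1d1 and Nr1d2, the ROR activator Rora, and the DEC repressors Bhlhe40 and Bhlhe41. They were chosen by gene symbol, and all 9 were found among the 56647 genes that had a value in every library. The list was drawn up with earlier results of these data known, from the count comparisons between the 3 groups of mice, so the levels and tests below describe the genes and are not independent evidence about them.

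RNA was measured in myocardial tissue of wild type mice in 3 groups. The NECA-treated MI group comprised 4 mice with an infarct into which NECA was delivered locally. NECA, 5'-(N-ethylcarboxamido)adenosine, is a stable analogue of adenosine that activates adenosine receptors. The MI group comprised 3 mice with left coronary ligation, which cuts off blood flow to part of the ventricle and causes myocardial infarction. The sham vehicle group comprised 3 mice described as sham and as given vehicle. The labels name no vehicle for the MI mice, so NECA and its delivery cannot be told apart, nor ligation and the absence of vehicle. They give no strain, sex, age, interval after surgery or hour of tissue collection, and the genes described here change with the time of day.

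In the circadian clock of mammals, CLOCK and its partner BMAL1, the product of Arntl, switch on the Per and Cry genes, whose proteins then block that activation, so that the cycle lasts about a day. The same activator switches on Dbp, Tef, Hlf and the REV-ERB genes. REV-ERB proteins repress Arntl and Nfil3 and compete with ROR proteins for the same DNA sites, while NFIL3 competes with DBP, TEF and HLF for a site called the D-box. In the heart the clock and its output genes take part in daily rhythms of fuel use and of electrical conduction.

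Each mouse was represented by 1 library of 3' end reads with 0.96 to 1.33 M counts, where M stands for 1e6 counts. MI mice 2 and 3 each had a further, deeper library, of 30.8 M counts in mouse 2 and 27.1 M counts in mouse 3, called the 1st library in the labels and used only where stated. In the 10 shallower libraries 1 count equalled 0.75 to 1.04 CPM, or counts per 1e6 counts. Cardiomyocyte markers (Myh6, Tnnt2, Actc1, Tnni3, Myl2 and Ryr2) were detected in every group and summed to 48300 to 52900 CPM in NECA-treated MI mice, 37400 to 47700 CPM in MI mice and 47800 to 55700 CPM in sham vehicle mice, which fits the tissue label. Sham vehicle mouse 3 and MI mouse 3 stood apart in markers of other cell types. The 4 atrial cardiomyocyte markers summed to 67.8 to 293 CPM in NECA-treated MI mice, to 216, 232 and 3830 CPM in MI mice and to 120, 179 and 6420 CPM in sham vehicle mice, with the highest values in those 2 mice. The 5 adipocyte markers summed to 769 CPM in sham vehicle mouse 3, against at most 2.26 CPM in the other sham vehicle mice. The infarcted mice also varied in these markers, from 0 to 268 CPM with NECA and from 0 to 221 CPM in the MI group. The 6 fibroblast markers summed to 10900 CPM in MI mouse 3, against at most 4440 CPM in any other mouse. NECA-treated MI mouse 4 stood apart in the skeletal muscle markers Myh4, Myh1 and Tnnt3, with 97.9, 91.4 and 45.2 CPM, against at most 4.12, 16.5 and 12.4 CPM in the other shallower libraries. Its sum over all 5 skeletal muscle markers was 2740 CPM, against 1790 to 2530 CPM in the other mice. The 6 macrophage markers summed to 377 to 623 CPM in NECA-treated MI mice, 265 to 863 CPM in MI mice and 159 to 348 CPM in sham vehicle mice. For the fibroblast markers the medians were 2540 CPM in NECA-treated MI mice, 1920 CPM in MI mice and 530 CPM in sham vehicle mice. Calls that change when such a mouse is left out are given beside the result or in the closing section, with some of the shifts in list medians. The part of these markers in the results was not tested. In bulk tissue, fewer cells of a type and less RNA per cell cannot be told apart.

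All 9 genes were detected in all 12 libraries. On the scale of transcripts per 1e6 transcripts (TPM), which divides by gene length, Dbp had the highest level, 85.9 ± 21.7 TPM, and Tef followed at 54.4 ± 13.0 TPM (SD, n = 10 mice of all groups). Nr1d1 averaged 36.1 ± 3.49 TPM, Nr1d2 29.9 ± 5.98 TPM and Bhlhe40 16.1 ± 3.84 TPM. Hlf averaged 5.95 ± 2.22 TPM, Bhlhe41 3.71 ± 1.1 TPM, Nfil3 3.1 ± 1.28 TPM and Rora 2.44 ± 1.04 TPM. Dbp lay above Tef, Nr1d2 above Bhlhe40, and Bhlhe40 above Hlf in all 10 mice. The order of neighbours was less even elsewhere. Tef lay above Nr1d1 in 9 of 10 mice, Nr1d1 above Nr1d2 in 8, Hlf above Bhlhe41 in 7, Bhlhe41 above Nfil3 in 8 and Nfil3 above Rora in 7. Since reads came from 3' ends, which do not multiply with gene length, the order by TPM leans toward short genes.

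The PAR bZIP genes Dbp, Tef and Hlf had higher mean levels in both infarcted groups than in sham vehicle mice. The means in infarcted mice were 1.37 to 1.88 times those of sham vehicle mice in the fitted model. No difference passed the threshold, a Benjamini-Hochberg adjusted p under 0.05 over the 9505 genes tested with the quasi-likelihood test of edgeR. Between NECA-treated MI and MI mice the 3 genes differed by at most 0.17 on the log2 scale. Levels below are CPM after TMM scaling, which corrects library totals for differences in composition.

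Dbp encodes an activator named for its binding to the D site of the albumin promoter. It stood at 147, 135, 140.4 and 184 CPM in NECA-treated MI mice 1 to 4, at 155, 159 and 146 CPM in MI mice 1 to 3 and at 144, 96.6 and 60.3 CPM in sham vehicle mice 1 to 3. The 7 infarcted mice lay between 135 and 184 CPM, and the sham vehicle mice spread from 60.3 CPM up to a value inside that range. Relative to library totals the same groups did not overlap, with 139 CPM as the lowest infarcted value and 126 CPM as the highest sham vehicle value. The log2 fold change was -0.02 ± 0.21 (SE) for NECA-treated MI against MI, with a 95% interval of -0.46 to 0.43 (edgeR adjusted p = 0.993). Against sham vehicle it was 0.60 ± 0.22 for NECA-treated MI (edgeR adjusted p = 0.803) and 0.62 ± 0.23 for MI (edgeR adjusted p = 0.32). Both comparisons use the same sham vehicle mice. The coefficient of variation of Dbp among sham vehicle mice was 41.9%, against 9.3% from counting error alone. It was 14.8% among NECA-treated MI mice and 4.53% among MI mice, where counting error gave 7.54% and 7.98%. The fold change for MI against sham vehicle was 0.35 without sham vehicle mouse 3 and 0.98 without sham vehicle mouse 1 (log2 scale, edgeR adjusted p = 0.381 and 0.13).

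Tef encodes a close relative of DBP first described in thyrotrophs, the cells of the pituitary that make thyroid stimulating hormone. NECA-treated MI mice had 211, 176, 197 and 247 CPM, MI mice 196, 185 and 171 CPM, and sham vehicle mice 164, 123 and 117 CPM. All 7 infarcted mice lay above all 3 sham vehicle mice, with 171 CPM as the lowest infarcted value and 164 CPM as the highest sham vehicle value. The log2 fold change was 0.63 ± 0.16 for NECA-treated MI against sham vehicle (edgeR adjusted p = 0.573) and 0.45 ± 0.17 for MI against sham vehicle (edgeR adjusted p = 0.325). NECA-treated MI against MI gave 0.17 ± 0.16, with a 95% interval of -0.16 to 0.51 (edgeR adjusted p = 0.886).

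Hlf encodes hepatic leukemia factor, the third PAR bZIP activator. Its level was 34.4, 37.6, 35.5 and 47.3 CPM in NECA-treated MI mice, 43.8, 40.1 and 33.8 CPM in MI mice and 16.7, 15.6 and 29.4 CPM in sham vehicle mice. In these shallower libraries the lowest infarcted mouse, at 33.8 CPM, lay above the highest sham vehicle mouse. The deeper 1st libraries gave 32.2 CPM in MI mouse 2 and 29.2 CPM in MI mouse 3, relative to library totals. Sham vehicle mouse 3 stood at 31.4 CPM on that scale, above the deeper library of MI mouse 3. The ratio of the 1st to the 2nd library was 0.869 (0.623 to 1.25) in MI mouse 2 and 0.779 (0.558 to 1.12) in MI mouse 3. The log2 fold change was 0.88 ± 0.24 for NECA-treated MI against sham vehicle (edgeR adjusted p = 0.587) and 0.91 ± 0.25 for MI against sham vehicle (edgeR adjusted p = 0.234). These were the largest differences among the 8 genes tested here, in both comparisons. Against MI, NECA-treated MI mice gave -0.03 ± 0.22, with a 95% interval of -0.49 to 0.43 (edgeR adjusted p = 0.99). Sham vehicle mouse 3, which had the highest sums of atrial and of adipocyte markers, had the highest Hlf of its group. Without it Hlf passed the threshold for MI against sham vehicle (log2 fold change 1.28, edgeR adjusted p = 0.037) and did not for NECA-treated MI against sham vehicle (1.25, edgeR adjusted p = 0.0688). Without both that mouse and MI mouse 3, an alternative added after the data had been seen, Hlf passed in both comparisons, at 1.38 for MI (edgeR adjusted p = 0.00814) and 1.25 for NECA-treated MI (edgeR adjusted p = 0.00423). Tef then also passed for NECA-treated MI against sham vehicle (log2 fold change 0.53, edgeR adjusted p = 0.0227). NECA-treated MI mouse 4, which carried the skeletal muscle markers, had the highest Dbp, Tef and Hlf of all mice. Without it the log2 fold changes for NECA-treated MI against sham vehicle were 0.50 for Dbp, 0.54 for Tef and 0.78 for Hlf, all with an edgeR adjusted p of 0.888.

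**Figure D1:**
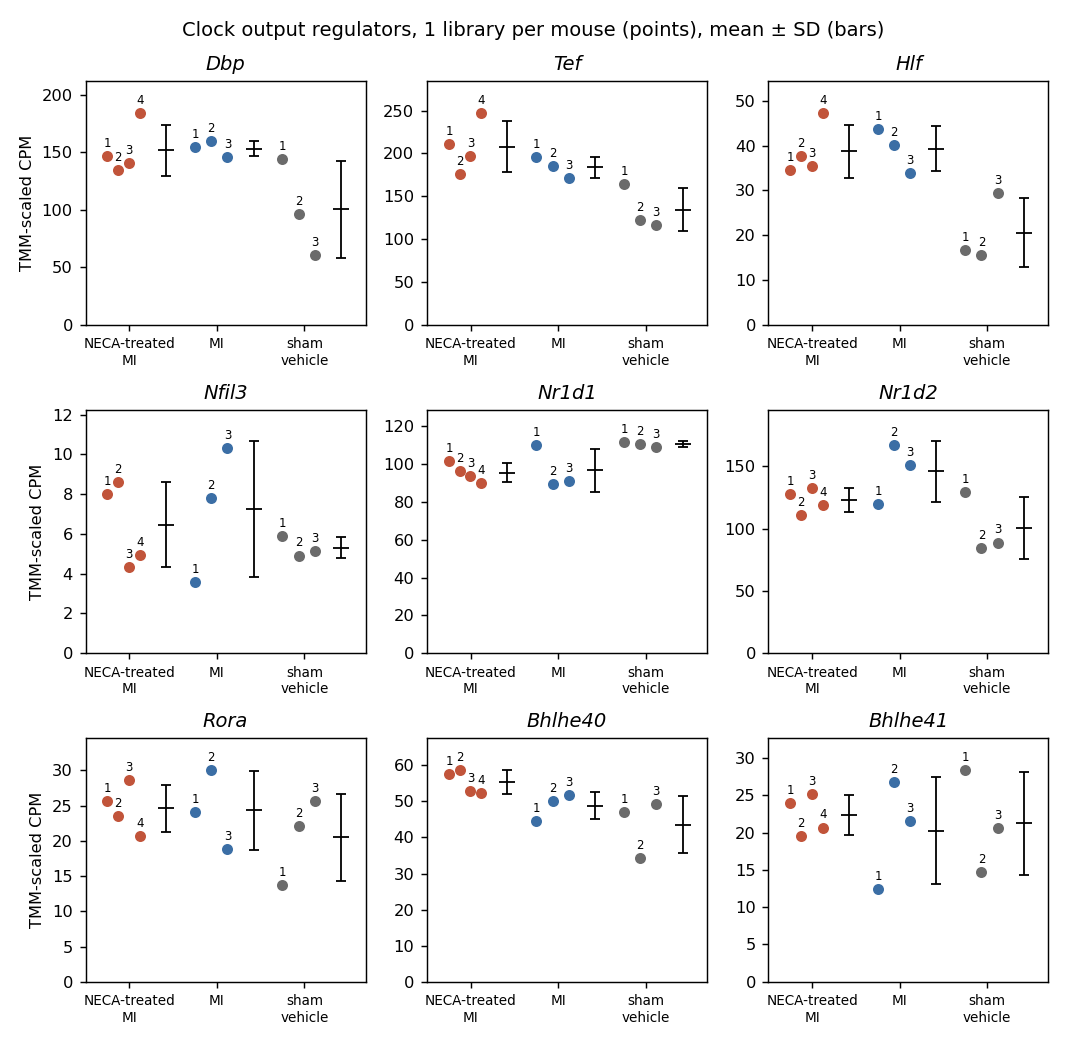
TMM-scaled CPM (vertical axes, from 0) of the 9 genes in NECA-treated MI, MI and sham vehicle mice. Each numbered point is the shallower library of 1 mouse and the bars give the mean ± SD; in these libraries Tef and Hlf of all infarcted mice lie above all sham vehicle mice, and Dbp of sham vehicle mice spreads from 60.3 to 144 CPM.

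Nfil3 encodes the bZIP repressor that binds the same D-box as the PAR bZIP proteins. It was close to the limit of detection, with 4 to 11 counts per library. In NECA-treated MI mice it stood at 8.01, 8.62, 4.33 and 4.93 CPM, in MI mice at 3.57, 7.8 and 10.3 CPM and in sham vehicle mice at 5.88, 4.91 and 5.14 CPM. The groups overlapped in every comparison, and Nfil3 did not pass the filter on low counts. With no filter, which brought 20308 genes into the test, its log2 fold change was -0.12 against MI for the NECA-treated mice with a 95% interval of -1.10 to 0.87 (edgeR adjusted p = 1). Against sham vehicle, NECA-treated MI gave 0.31 with an interval of -0.70 to 1.31 (edgeR adjusted p = 0.935). MI gave 0.42 with an interval of -0.66 to 1.5 (edgeR adjusted p = 0.815). Changes within these intervals are not excluded at this depth.

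The REV-ERB pair did not have like patterns across the mice. Nr1d1, which encodes the heme-binding repressor REV-ERB alpha, was the steadiest of the 9 genes by TPM relative to its mean, with mean levels slightly lower in both infarcted groups. NECA-treated MI mice had 102, 96.4, 93.6 and 89.7 CPM, MI mice 109.8, 89.2 and 91.2 CPM and sham vehicle mice 112, 111 and 109 CPM. After TMM scaling all 4 NECA-treated MI mice lay below all sham vehicle mice, but relative to library totals the same groups overlapped. The sham vehicle mice had a coefficient of variation of 1.39%, below the 8.69% that counting error alone gives, so 3 values this close are not a measure of the biological spread. NECA-treated MI against MI gave a log2 fold change of -0.02 ± 0.14, NECA-treated MI against sham vehicle one of -0.21 ± 0.14, and MI against sham vehicle one of -0.19 ± 0.15 (edgeR adjusted p = 0.988, 0.884 and 0.648). The 95% interval of the last of these ran from -0.51 to 0.13.

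Nr1d2 encodes the second REV-ERB repressor, REV-ERB beta. It stood at 128, 111, 133 and 119 CPM in NECA-treated MI mice, at 119.6, 167 and 151 CPM in MI mice and at 129.5, 84.4 and 88.9 CPM in sham vehicle mice. The groups overlapped, because sham vehicle mouse 1 lay within the range of the infarcted mice. Relative to library totals, however, all infarcted mice lay above all sham vehicle mice. Against sham vehicle the log2 fold change was 0.29 ± 0.17 for NECA-treated MI (edgeR adjusted p = 0.839) and 0.54 ± 0.18 for MI (edgeR adjusted p = 0.268). Against MI, NECA-treated MI mice differed by -0.25 ± 0.17, with a 95% interval of -0.60 to 0.10 (edgeR adjusted p = 0.845). On the TPM scale the ratio of Nr1d2 to Nr1d1 was 0.87, 0.716, 0.981 and 1.09 in NECA-treated MI mice, 0.77, 1.14 and 0.996 in MI mice and 0.796, 0.568 and 0.495 in sham vehicle mice. The ratio of Dbp to Nr1d1 was 2.58 to 3.32 in NECA-treated MI mice, 2.55 to 2.84 in MI mice and 0.933 to 2.19 in sham vehicle mice, so the groups with an infarct lay above the sham vehicle group in that ratio. Dbp and Nr1d1 are both known targets of CLOCK and BMAL1. These ratios were formed after the levels had been seen and were not tested.

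Rora encodes ROR alpha, the activator that competes with REV-ERB proteins. NECA-treated MI mice had 25.6, 23.5, 28.6 and 20.7 CPM, MI mice 24.1, 30.1 and 18.8 CPM and sham vehicle mice 13.7, 22.1 and 25.7 CPM. All groups overlapped, and the log2 fold changes were 0.03 ± 0.25 for NECA-treated MI against MI and, against sham vehicle, 0.24 ± 0.25 for NECA-treated MI and 0.21 ± 0.27 for MI (edgeR adjusted p = 0.99, 0.944 and 0.797). The sign of the last value turned with the deeper libraries and on the TPM scale, where it stayed short of the threshold.

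The DEC genes encode basic helix-loop-helix repressors that bind the same E-box as CLOCK and BMAL1. Bhlhe40 (DEC1) stood at 57.7, 58.8, 52.9 and 52.2 CPM in NECA-treated MI mice, 44.6, 50.1 and 51.7 CPM in MI mice and 47.1, 34.4 and 49.2 CPM in sham vehicle mice. All NECA-treated MI mice lay above all mice of both other groups after TMM scaling, by a narrow margin, and the groups overlapped relative to library totals. On that scale the deeper 1st libraries gave 48.3 CPM in MI mouse 2 and 65.0 CPM in MI mouse 3. The NECA-treated MI mice had 49.9 to 61.0 CPM. The log2 fold change of NECA-treated MI mice was 0.19 ± 0.17 against MI mice and 0.35 ± 0.17 against sham vehicle mice (edgeR adjusted p = 0.886 and 0.822). For MI against sham vehicle it was 0.16 ± 0.19 (edgeR adjusted p = 0.768). Bhlhe41 (DEC2) stood at 24.0, 19.6, 25.1 and 20.7 CPM in NECA-treated MI mice, 12.5, 26.7 and 21.6 CPM in MI mice and 28.4, 14.7 and 20.6 CPM in sham vehicle mice. The groups overlapped throughout, with log2 fold changes of 0.16 between the NECA-treated MI and MI groups and, against sham vehicle, of 0.09 for NECA-treated MI and -0.07 for MI, and standard errors of 0.27 to 0.30.

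**Figure D2:**
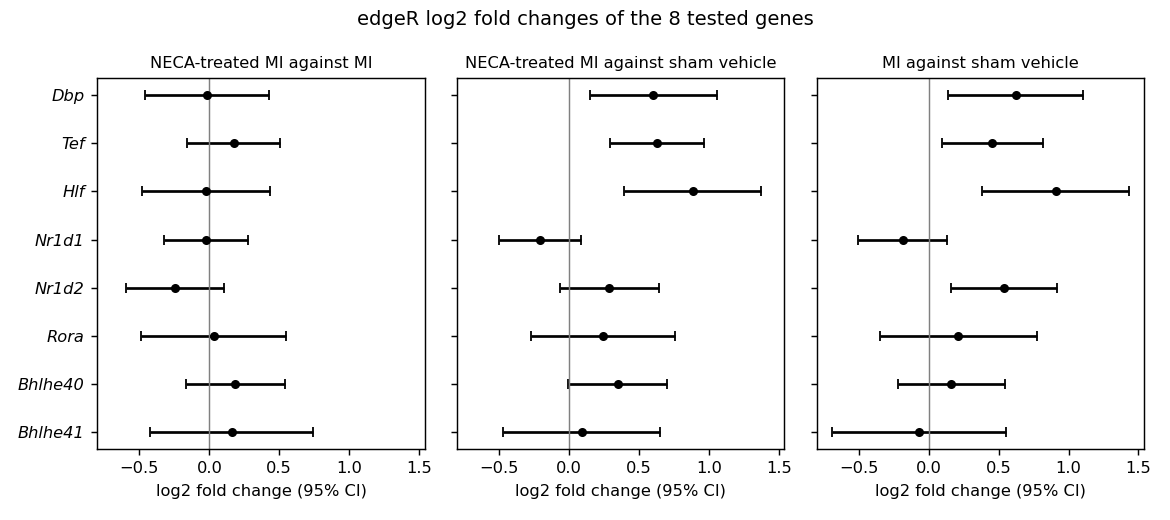
Log2 fold changes from edgeR (points, horizontal axis) with 95% confidence intervals (bars) for the 8 tested genes, in panels for NECA-treated MI against MI, NECA-treated MI against sham vehicle and MI against sham vehicle. All 8 intervals include 0 for NECA-treated MI against MI, while those of Dbp, Tef and Hlf lie above 0 in both comparisons with sham vehicle mice; no gene passed after adjustment over all genes.

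Over the group, 8 of the 9 genes passed the filter and 0 of those 8 passed the threshold in any comparison in the edgeR fit over all 10 mice. With DESeq2 and with limma the count was 0 as well, and the settings under which Tef, Hlf or Dbp passed are given in the closing section. For NECA-treated MI against MI the threshold was passed by 0% of all 9505 genes tested. An unadjusted p under 0.05 was reached by 0 of the 8 genes and by 6.07% of all genes, and groups without overlap were found for 1 of the 8, Bhlhe40, and for 7.49% of all genes. The median log2 fold change of the 8 genes was 0.01, beside -0.01 over all genes tested. For NECA-treated MI against sham vehicle 0.0105% of all genes passed. An unadjusted p under 0.05 was reached by 3 of the 8 (Dbp, Tef and Hlf), beside 6.03% of all genes. Groups without overlap were found for 4 of the 8 (Tef, Hlf and Bhlhe40 above and Nr1d1 below), beside 8.56%. The median log2 fold change was 0.32, beside -0.01 over all genes. For MI against sham vehicle 0.0736% of all genes passed. Here an unadjusted p under 0.05 was reached by 4 of the 8 (Dbp, Tef, Hlf and Nr1d2), beside 12% of all genes, and groups without overlap were found for 3 of the 8 (Dbp, Tef and Hlf above), beside 14.3%. The median was 0.33, beside -0.01. The 2 comparisons with sham vehicle share those 3 mice, and the 8 genes were chosen with results known, so the counts describe the list only.

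Because the NECA-treated MI and MI mice gave like values for most of these genes, all 7 infarcted mice were also set against the 3 sham vehicle mice, a comparison added after the data had been seen. It gave 0 of 8 genes past the threshold, beside 0.105% of all genes. An unadjusted p under 0.05 was reached by 4 of the 8, beside 9.95% of all genes, and groups without overlap by 2 of the 8 (Tef and Hlf), beside 3.64%. Hlf had the largest log2 fold change, 0.90 ± 0.22 (edgeR adjusted p = 0.207). In the shallower libraries it was higher in 7 of 7 infarcted mice than in any sham vehicle mouse, which did not hold for the deeper library of MI mouse 3. Without sham vehicle mouse 3 its value was 1.27 and it passed (edgeR adjusted p = 0.0196). Tef gave 0.54 ± 0.15 and Dbp 0.61 ± 0.20 (edgeR adjusted p = 0.24 and 0.34).

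The genes of the core clock, to which these regulators answer, were read from a list of 13, of which 10 were tested. In that added comparison 1 of the 10, Per2, rose. Per2, a core repressor of the clock, averaged 32.8 ± 3.58 CPM in the infarcted mice and 12.9 ± 4.92 CPM in sham vehicle mice (SD, n = 7 and 3), a log2 fold change of 1.35 ± 0.24 (edgeR adjusted p = 0.0217), and was higher in all 7 infarcted mice than in any sham vehicle mouse. Relative to library totals, Per2 of MI mouse 2 stood at 16.9 CPM in the deeper 1st library, against 32.9 CPM in the 2nd library used here. In MI mouse 3 it stood at 33.8 CPM (1st) and 31.3 CPM (2nd), and sham vehicle mouse 1 stood at 14.6 CPM. Per1 of MI mouse 2 stood at 31.2 CPM (1st) and 67.9 CPM (2nd), beside 40.3 CPM in sham vehicle mouse 1. In MI mouse 3 Per1 stood at 75.5 CPM (1st) and 76.05 CPM (2nd). The call of Per2 was not stable. With 1 mouse left out in turn it was lost without sham vehicle mouse 2 or 3, MI mouse 2 or NECA-treated MI mouse 2, 3 or 4, at log2 fold changes of 1.04 to 1.48 and edgeR adjusted p of 0.0523 to 0.129. Without sham vehicle mouse 3, the lowest of its group at 7.35 CPM, the value was 1.04 (edgeR adjusted p = 0.0661), and without that mouse and MI mouse 3 together it was 1.06 (edgeR adjusted p = 0.0182). With all mice, each infarcted group alone against sham vehicle did not pass, neither NECA-treated MI (1.43 ± 0.26, edgeR adjusted p = 0.0712) nor MI (1.27 ± 0.28, edgeR adjusted p = 0.111). NECA-treated MI passed without MI mouse 3 (1.43, edgeR adjusted p = 0.0134) and without both mice (1.11, edgeR adjusted p = 0.014). Of the 10 genes, 7 had a positive and 3 a negative log2 fold change in each of the 4 comparisons, with a median of 0.13 for NECA-treated MI against MI and, against sham vehicle, medians of 0.27 for NECA-treated MI, 0.19 for MI and 0.21 for all infarcted mice. With 1 mouse left out in turn the median for NECA-treated MI against MI ranged between 0.01, without MI mouse 3, and 0.24, without NECA-treated MI mouse 2. For MI against sham vehicle it ranged between 0.10, without sham vehicle mouse 3, and 0.36, without sham vehicle mouse 2. Among the most abundant were Per3, Per1 and Csnk1d, a kinase that phosphorylates PER proteins. Per3 averaged 77.9 ± 15.4 CPM in NECA-treated MI mice, 72.1 ± 21.7 CPM in MI mice and 31.1 ± 15.6 CPM in sham vehicle mice. Per1 averaged 64.7 ± 14.3 CPM in NECA-treated MI mice, 65.2 ± 10.4 CPM in MI mice and 32.8 ± 15.7 CPM in sham vehicle mice. Against sham vehicle the log2 fold change of Per3 was 1.35 for NECA-treated MI and 1.24 for MI. That of Per1 was 1.0 and 1.02 for the same groups, and with all mice no adjusted p was under the threshold. Without sham vehicle mouse 3 Per1 gave 0.64 for NECA-treated MI and 0.65 for MI, and Per3 gave 1.03 for MI. Without sham vehicle mouse 1 Per3 passed for NECA-treated MI (1.81, edgeR adjusted p = 0.0206) and MI (1.70, edgeR adjusted p = 0.0439). All infarcted mice then gave 1.76 (edgeR adjusted p = 0.00953), and without MI mouse 1 they gave 1.41 (edgeR adjusted p = 0.0436). The log2 fold changes of Csnk1d lay between -0.06 and 0.27 in all comparisons.

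The 3 sham vehicle mice differed among themselves in these genes. Sham vehicle mouse 1 had Dbp, Tef and Nr1d2 at 144, 164 and 129.5 CPM, while mice 2 and 3 had at most 96.6, 123 and 88.9 CPM. Its Per1 and Per3, at 46.1 and 49 CPM, were also the highest of the group, against 36.9 and 22.1 CPM in mouse 2 and 15.4 and 22 CPM in mouse 3. Arntl and Ciart, named here after their values were seen, were low. Arntl had 3 counts in sham vehicle mouse 1 and 10 and 11 counts in mice 2 and 3, and Ciart had 12 counts in mouse 1 and 4 and 1 counts in mice 2 and 3. Among infarcted mice Arntl had 1 to 4 counts with NECA and 2 to 5 counts without it. In Dbp, Tef, Nr1d2, Per1, Per3, Arntl and Ciart, a set picked with the values in view, sham vehicle mouse 1 was nearer to the means of the infarcted groups than mice 2 and 3 were. In Hlf and Rora sham vehicle mouse 3 was the nearest instead, at 29.4 and 25.7 CPM, against 16.7 and 13.7 CPM in mouse 1. Mouse 3 was also the nearest in Nr1d1, Bhlhe40 and Bhlhe41. It had 109, 49.2 and 20.6 CPM of these, against 112, 47.1 and 28.4 CPM in mouse 1, though Nr1d1 hardly differed among the 3 mice.

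**Figure D3:**
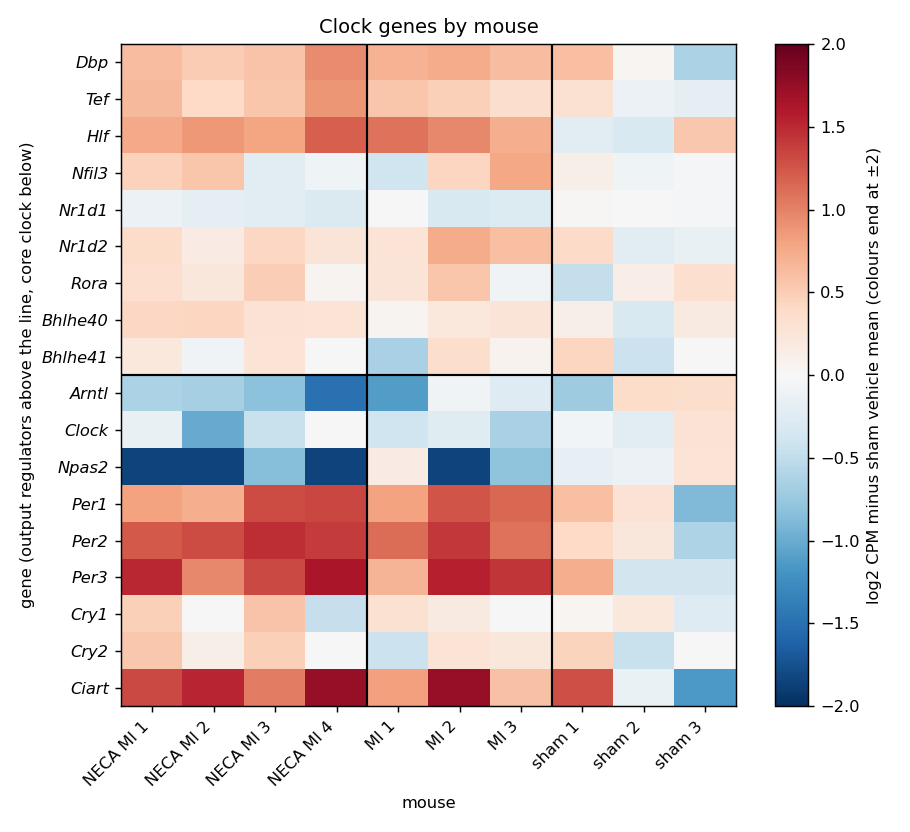
Log2 CPM of each mouse (columns, NECA-treated MI, MI and sham vehicle) minus the sham vehicle mean, for the 9 output regulators and 9 core clock genes (rows, 2 counts added before the log); red is above and blue below that mean and colours end at ±2. Per2 is red in all infarcted mice, and in the sham vehicle group mouse 1 is red in Dbp, Per1, Per3 and Ciart, as the infarcted mice are.

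Genes that cycle in most mouse organs formed a list of 10 that shares Dbp, Nr1d1 and Nr1d2 with the genes above. It also shares Arntl, Per1, Per2 and Per3 with the core clock list, so it is largely not a separate set of genes. Of its 9 tested genes, 8 were positive and 1 negative for NECA-treated MI against sham vehicle, and 7 positive and 2 negative for MI against sham vehicle. Of all 9505 genes tested, 4552 and 4666 were positive in the same comparisons, with a median of -0.01 in each. The medians were 0.60 and 0.75, while NECA-treated MI against MI gave a median of -0.02, and with all mice none passed the threshold in these 3 comparisons. Without sham vehicle mouse 3 the first 2 medians were 0.56 and 0.65. The median for MI against sham vehicle was 0.59 without MI mouse 3. That for NECA-treated MI against sham vehicle was 0.50 without NECA-treated MI mouse 4. Leaving out Dbp, Nr1d1 and Nr1d2, the most abundant besides Per1 and Per3 were Usp2, a deubiquitinase, and Tsc22d3, a glucocorticoid-induced gene. Tsc22d3 averaged 69.9 ± 15.0 CPM in NECA-treated MI mice, 79.3 ± 16.7 CPM in MI mice and 47.3 ± 2.04 CPM in sham vehicle mice. Usp2 averaged 90.3 ± 13.5 CPM in NECA-treated MI mice, 72.3 ± 19.2 CPM in MI mice and 80.2 ± 22.7 CPM in sham vehicle mice.

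Clock-controlled genes of the heart, a list of 13 that were all tested, had 11 positive and 2 negative log2 fold changes for NECA-treated MI against MI, with a median of 0.37, beside -0.01 over all genes. None passed the threshold, and 4 of the 13 reached an unadjusted p under 0.05, beside 6.07% of all genes. With 1 mouse left out in turn the median ranged between 0.17, without MI mouse 3, and 0.61, without MI mouse 2. For NECA-treated MI against sham vehicle 8 were positive and 5 negative, with a median of 0.10 that turned to -0.03 without sham vehicle mouse 3, and for MI against sham vehicle 5 were positive and 8 negative, with a median of -0.19 that was -0.42 without MI mouse 1 and turned to 0.14 without sham vehicle mouse 2. With all mice none passed in these comparisons. Without sham vehicle mouse 3 and MI mouse 3 together, 1 of the 13 fell for MI against sham vehicle. In that fit 28 of all 9560 genes tested rose and 41 fell. Dgat2, an enzyme of triglyceride synthesis, averaged 288 ± 52.9 CPM in NECA-treated MI mice, 208 ± 48.2 CPM in MI mice and 257 ± 0.769 CPM in sham vehicle mice. Pdk4, a kinase that limits glucose oxidation, averaged 150.4 ± 40.6 CPM in NECA-treated MI mice, 136 ± 100.5 CPM in MI mice and 272 ± 289.7 CPM in sham vehicle mice. Kcnip2, a subunit of the transient outward potassium channel, averaged 164 ± 8.7 CPM in NECA-treated MI mice, 149 ± 48.1 CPM in MI mice and 141.5 ± 45.1 CPM in sham vehicle mice. MI mouse 3 had the lowest sum of cardiomyocyte markers, 37400 CPM, and the highest of fibroblast markers.

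Across the 10 mice, Dbp and Tef were the most alike of the 8 tested genes. Likeness was measured as the root mean square difference of standardised log2 CPM, where smaller is more alike. It was 0.44 for Dbp with Tef, 0.69 for Dbp with Nr1d2 and 0.75 for Tef with Hlf, while Nr1d1 was at least 1.54 from each of the others. Among 8317 tested genes with a mean of at least 10 CPM, the 3 nearest to Dbp were Colec11 at 0.31, Per1 at 0.34 and Rapgef2 at 0.34, beside a median of 1.35. The 3 nearest to Nr1d1 were Abcb9 at 0.36, Wars at 0.39 and Pex2 at 0.40, beside a median of 1.32. These values rank likeness over 10 mice of 3 groups and are a description only.

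The repeated libraries of MI mice 2 and 3 gave a measure of the difference between libraries of the same mouse. The labels do not say whether both came from the same RNA or tissue piece, so the part of technical error was not tested. For 15 of the 18 pairs of a gene and a mouse the 95% counting interval of the ratio of the 1st to the 2nd library included 1. Relative to library totals, Dbp stood at 159 CPM (1st) and 147 CPM (2nd) in MI mouse 2, and at 172 CPM (1st) and 162 CPM (2nd) in MI mouse 3. Nr1d1 of MI mouse 2 stood at 59.2 CPM (1st) and 82.3 CPM (2nd), a ratio of 0.719 (0.575 to 0.912). The ratio was 0.646 (0.439 to 0.99) for Rora in MI mouse 2 and 0.795 (0.679 to 0.937) for Nr1d2 in MI mouse 3. These intervals cover counting error only, and the same Nr1d1 and Rora ratios in MI mouse 3 were 1.08. Outside these pairs, Per1 stood at 31.2 CPM (1st) and 67.9 CPM (2nd) in MI mouse 2. In MI mouse 3 it stood at 75.5 CPM (1st) and 76.05 CPM (2nd).

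**Figure D4:**
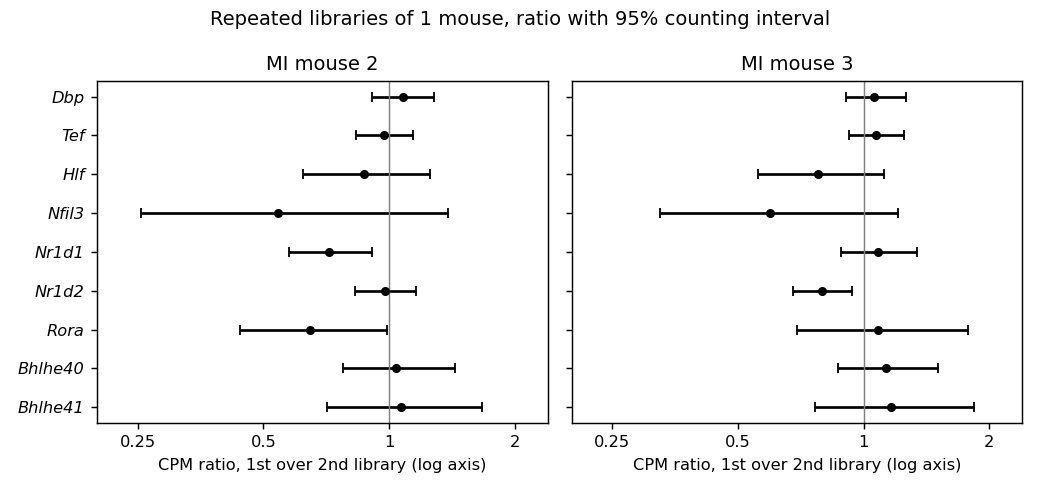
Ratio of CPM in the 1st over the 2nd library (horizontal axis, log scale) of MI mouse 2 and MI mouse 3, with 95% counting intervals, for the 9 genes. Intervals of Nr1d1 and Rora in mouse 2 and of Nr1d2 in mouse 3 lie below 1, and the other 15 include it.

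Several of these genes overlap a gene on the opposite strand. Whether reads were counted by strand is not given in the sources used here, so reads of the pairs may not be fully told apart. Thra, which encodes the thyroid hormone receptor alpha, overlaps the end of Nr1d1 and had 56 to 90 counts per library. It averaged 56.8 ± 4.02 CPM in NECA-treated MI mice, 67.6 ± 12.9 CPM in MI mice and 68.6 ± 16.2 CPM in sham vehicle mice. Sphk2, a sphingosine kinase gene that overlaps Dbp, had 8 to 26 counts per library and averaged 13.2 ± 4.31 CPM in NECA-treated MI mice, 17.1 ± 5.57 CPM in MI mice and 18 ± 0.687 CPM in sham vehicle mice. Neither Thra nor Sphk2 passed the threshold in any comparison. The opposite-strand genes that overlap Tef, Rora, Bhlhe40 and Bhlhe41 each had at most 6 counts in total over the 10 libraries.

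Promoter sequence was available for 8 of the 9 genes in 9 windows of RefSeq (mouse build GRCm38.p6), each from 250 bases before to 50 bases after a start site. Both strands were searched for the E-box CACGTG bound by CLOCK and BMAL1. The D-box TTANGTAA bound by PAR bZIP proteins and NFIL3 was searched for in the same way. So was the RORE core AGGTCA, only a part of the site bound by REV-ERB and ROR proteins, without the bases beside it. The E-box lay in the windows of Tef and Bhlhe41, beside 7.15% of all 32851 promoter windows. The RORE core lay in those of Nfil3 and Nr1d2, beside 16.3% of all windows, and the D-box in 0 of the 9, beside 2.32% of all windows. A match is not a bound site, and its absence says only that these letters are not in these windows. The windows of Tef, whose levels in infarcted mice lay above those in sham vehicle mice, and of the other matching genes are given over 30 bases, 5′ to 3′ on the gene's strand, with the motif in capitals. In Nfil3 the RORE core is on the opposite strand.
Tef, first start, E-box, chr15:81802534-81802563, plus strand: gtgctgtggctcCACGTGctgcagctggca
Tef, second start, E-box, chr15:81811264-81811293, plus strand: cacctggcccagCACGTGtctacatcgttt
Bhlhe41, E-box, chr6:145865556-145865585, minus strand: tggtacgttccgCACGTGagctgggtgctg
Nr1d2, RORE core, chr14:18239166-18239195, minus strand: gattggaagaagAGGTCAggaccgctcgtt
Nfil3, RORE core, chr13:52981034-52981063, minus strand: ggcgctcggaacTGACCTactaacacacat
The E-box began 127 and 138 bases before the 2 start sites of Tef and 153 bases before that of Bhlhe41, the RORE core 77 bases before that of Nr1d2 and 12 bases before that of Nfil3. Of the 2 genes with the E-box letters, Tef of all infarcted mice lay above that of all sham vehicle mice, and the groups overlapped in Bhlhe41. Any part of the E-box in these levels was not tested.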

How the data were processed

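Total RNA of myocardium was sequenced from its 3' ends with a modified CEL-Seq2 protocol, per the labels' protocols. Reads were processed with STAR, RSEM and FastQC 0.11.9 on GRCm39, per the submitters' processing notes. Strand, molecular identifiers and the annotation release are among the details not given in the sources used here. Expected counts per gene, as whole numbers, and log2(TPM + 1) values were deposited by the authors. Of 57054 gene rows, 306 had values only in the 1st libraries of MI mice 2 and 3 and 101 lacked values only there, and the other 56647 were used. Symbols came from GENCODE M21 by Ensembl identifier and covered 52029 rows.

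Counts were tested in edgeR 4.0.16 (R 4.3.3) with filterByExpr, TMM scaling and the robust quasi-likelihood test, two-sided, in 1 fit over 10 mice with 1 library each. The 2nd libraries of MI mice 2 and 3 were used because the deep 1st libraries belong to MI mice only. Nfil3 did not pass the filter. The labels number separate mice, and p-values measure the spread between these mice. The fit was tested on simulated data, where 37.5% to 44.5% of 2-fold changes and 87.5% to 89% of 4-fold changes passed the threshold. Most 2-fold changes were thus missed in the simulation, which had 200 changed genes. The share missed in the data themselves was not measured and may differ. Alternatives were DESeq2 1.42.0, limma 3.58.1 on log2(TPM + 1) and with a pseudocount of 0.1, other scalings, no filter, deep or summed libraries, fits of 2 groups, a replicate block and leaving out each mouse. The comparison of all infarcted mice with sham vehicle mice, the fit without sham vehicle mouse 3 and MI mouse 3, and the list genes and medians with mice left out were chosen after seeing the data.

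The genes, lists and tests were chosen with earlier results of these data known. Besides the 9 genes, the text names genes of the lists past the threshold and at most 4 others per list, the most abundant by mean CPM, the overlapping neighbours, and the 3 genes most like Dbp and Nr1d1 (Nfil3, not tested, was given none). Arntl and Ciart fall outside this rule. Some genes the rule takes are not reported here.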

Additional observations from a re-analysis of the deposited data

How the results depend on the processing

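No gene reversed past the threshold, and 662 of 672 alternative values of the 8 genes kept their side of it. The other 10 passed it newly. Since none of the 8 passed in the main fit, a turned sign counted as a reversal only where the alternative passed. Signs did turn without passing. Bhlhe41 kept its sign in 11 of 21 alternatives for all infarcted mice against sham vehicle. Hlf and Nr1d1 each kept theirs in 16 of 21 for NECA-treated MI against MI. Dbp, Tef and Hlf kept theirs in all 21 for each comparison with sham vehicle. For NECA-treated MI against sham vehicle 2 of the 8 genes passed (Tef and Hlf) without sham vehicle mouse 3 and MI mouse 3 together. For MI against sham vehicle 1 passed (Hlf) with no count filter (edgeR adjusted p = 0.0415) and 1 with both of those mice left out, and 0 to 1 passed when each mouse was left out in turn, the 1 without sham vehicle mouse 3. For all infarcted mice against sham vehicle 2 passed with no filter (Dbp and Hlf, edgeR adjusted p = 0.0338 and 0.0119), 2 with both mice left out (Tef and Hlf, edgeR adjusted p = 0.0408 and 0.00147) and 0 to 1 with each mouse left out. For NECA-treated MI against MI 0 passed in every alternative. The cause of these changes was not tested. With mouse number as a replicate block 0 of the 8 genes passed in each comparison, and same-numbered mice deviated with correlations of -0.23 to 0.19, so the numbers are not taken to pair the mice.

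Counts of all genes past the threshold were unstable. They were 0, 1, 7 and 10 as reported for NECA-treated MI against MI, NECA-treated MI against sham vehicle, MI against sham vehicle and all infarcted mice against sham vehicle, and ranged over the alternatives from 0 to 8, 0 to 242, 0 to 191 and 1 to 243. The rise of Per2 in all infarcted mice was also lost with summed libraries (edgeR adjusted p = 0.19), 1st libraries alone (0.203), limma on log2(TPM + 1) (0.191) and log2(TPM + 0.1) (0.172), and the replicate block (0.0622), at log2 fold changes of 1.12 to 1.46. Rora for MI against sham vehicle turned to -0.01 with the 1st libraries alone and to -0.12 with limma on log2(TPM + 1), and was not called. With no scaling beyond library totals the median of all genes moved by at most 0.08 on the log2 scale. At 0.96 to 1.33 M counts, depth limits Nfil3, Rora, Bhlhe41 and Hlf most.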
